A study of Mus musculus with 2 samples.

Results

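The genes described here encode proteins of the extracellular matrix other than collagens. They comprise 7 small leucine-rich proteoglycans, 13 elastic fibre and microfibril genes, 9 adhesive and matricellular glycoproteins, 7 basement membrane genes and 4 other matrix genes. They were chosen by name: a probe counted for a gene when its name in the array file, or the current symbol of its RefSeq accession, was one of these 40 symbols. All 40 had at least 1 probe, and they had 57 probes together, among 27238 genes with a named probe.

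The colon pool held CX3CR1high CD11b+ CD11c+ cells sorted from the lamina propria of the large intestine of CX3CR1gfp/+ mice, which carry green fluorescent protein in place of an allele of the fractalkine receptor gene Cx3cr1. The blood pool held Ly6c+ CD11b+ monocytes of C57BL/6J mice. Ages, treatments and the number of mice in each pool are not given in the labels, and the series text states an n of 10 for the colon side and of 6 for the blood side with no unit. Tissue, strain, isolation and cell type differ together between the pools, so their parts cannot be told apart. RNA of both pools, 25 ng per labelling, was hybridised to 2 Agilent arrays of 2 colours each with the dyes exchanged, colon in Cy5 on array 1 and in Cy3 on array 2. The labels name the same pools on both arrays and do not say whether the same RNA extracts or labellings were used. The arrays were counted as 1 replicate and allow no test; an SD given below is that between the 2 arrays and does not include the spread between mice.

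The extracellular matrix is a network of secreted proteins laid down mainly by fibroblasts, smooth muscle cells and other mesenchymal cells. Small leucine-rich proteoglycans bind collagen fibrils. Fibrillins build the microfibrils on which elastin is deposited, and fibulins bridge microfibrils and elastin. Laminins, nidogens and perlecan form the basement membrane under epithelia and around vessels, glia and smooth muscle. Macrophages and monocytes are known as makers of a few of these proteins, among them fibronectin, osteopontin, thrombospondin 1 and versican. In the gut these cells lie in a lamina propria that is rich in matrix and in fibroblasts.

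Most of the matrix genes gave more signal in the colon pool. A gene counted as measured if 1 pool stood well above background in both dyes, by the scanner software's flag. It was called if its log2 ratio of colon over blood reached 1 or more on each array, or -1 or less on each. Of the 40 genes 38 were measured. Of these, 31 were called higher in the colon pool, where 14.2% of all 15693 measured genes were, and 2 were called lower, where 4.45% of all measured genes were; calls in either direction took 18.6% of all measured genes. The median log2 ratio was 3.64 over the measured matrix genes and 0.06 over all measured genes. All 38 had the same sign on both arrays, 36 of them above 0, and the SD between the arrays ran from 0.0023 to 0.42 with a median of 0.15. The 2 lower genes were Fn1 and Vcan, and the 5 genes measured but not called were Eln, Tnc, Lox, Thbs1 and Emilin1. The proteoglycan genes Prelp and Fmod reached that level in neither pool. In pooled RNA, fewer cells of a type and less RNA per cell cannot be told apart.

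Part of these ratios rests on a blood signal near background. The blood pool was not well above background on either array for 11 of the 38 measured genes, against 8.46% of all measured genes, and on 1 array alone for 3 more, Lum, Sparcl1 and Efemp1. For genes of this kind that were called, a fold is given as "at least": on each array the blood level was taken as the higher of the dimmest signal still well above background and the probe's own signal. For 8 of the 11 genes the probe's own signal was the higher on both arrays, so the value given equals the measured fold. These folds hold for the reported probe and processing alone. For all 11 genes another setting gave a smaller ratio, but the settings include each array alone. Of the arrays, 1 always lies below the mean of both unless they are equal, so that count was largely fixed in advance. Counting the 24 genes that were well above background in both pools on both arrays, 20 were higher (12.9% of all such genes) and 2 lower (5.05% of all such genes), with a median of 3.58 against 0.0089 for all 13278 such genes.

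**Figure D1:**
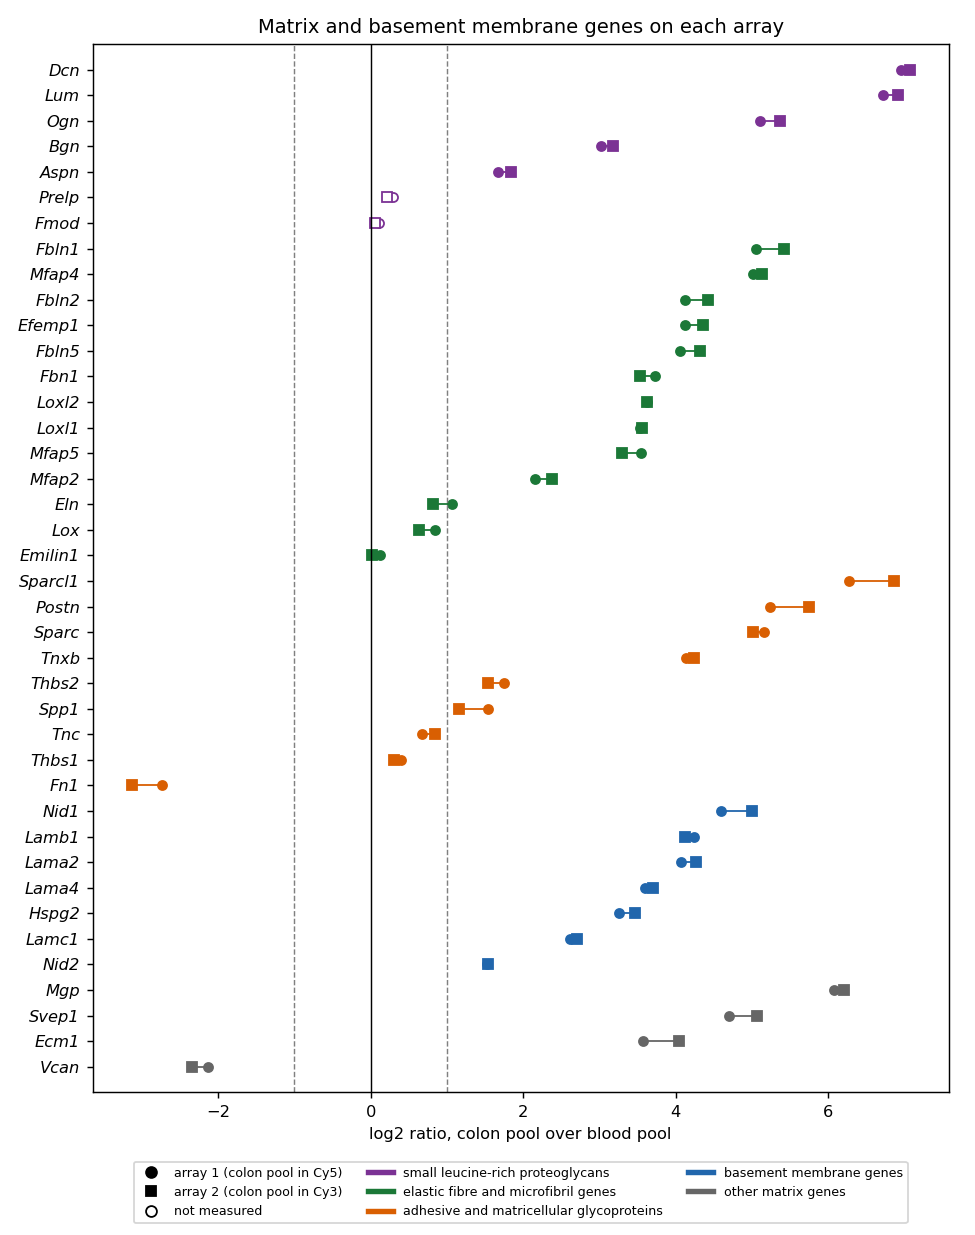
Log2 ratio, colon over blood, for the 40 matrix genes, by role, with a circle for array 1 and a square for array 2, open where a gene was not measured; the dashed lines mark 2-fold. The called genes lie beyond the same line on both arrays, 31 to the right and 2, Fn1 and Vcan, to the left.

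The scanner intensities showed the direction of the called genes before any normalization. They are linear spot brightness over a local background of 40.5 to 43, and for each pool they differ between the arrays with the dye, so the 2 arrays are given as a pair. Depending on pool and dye, 52.9% to 59.6% of spots other than controls stood well above background, and no spot was saturated.

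**Figure D2:**
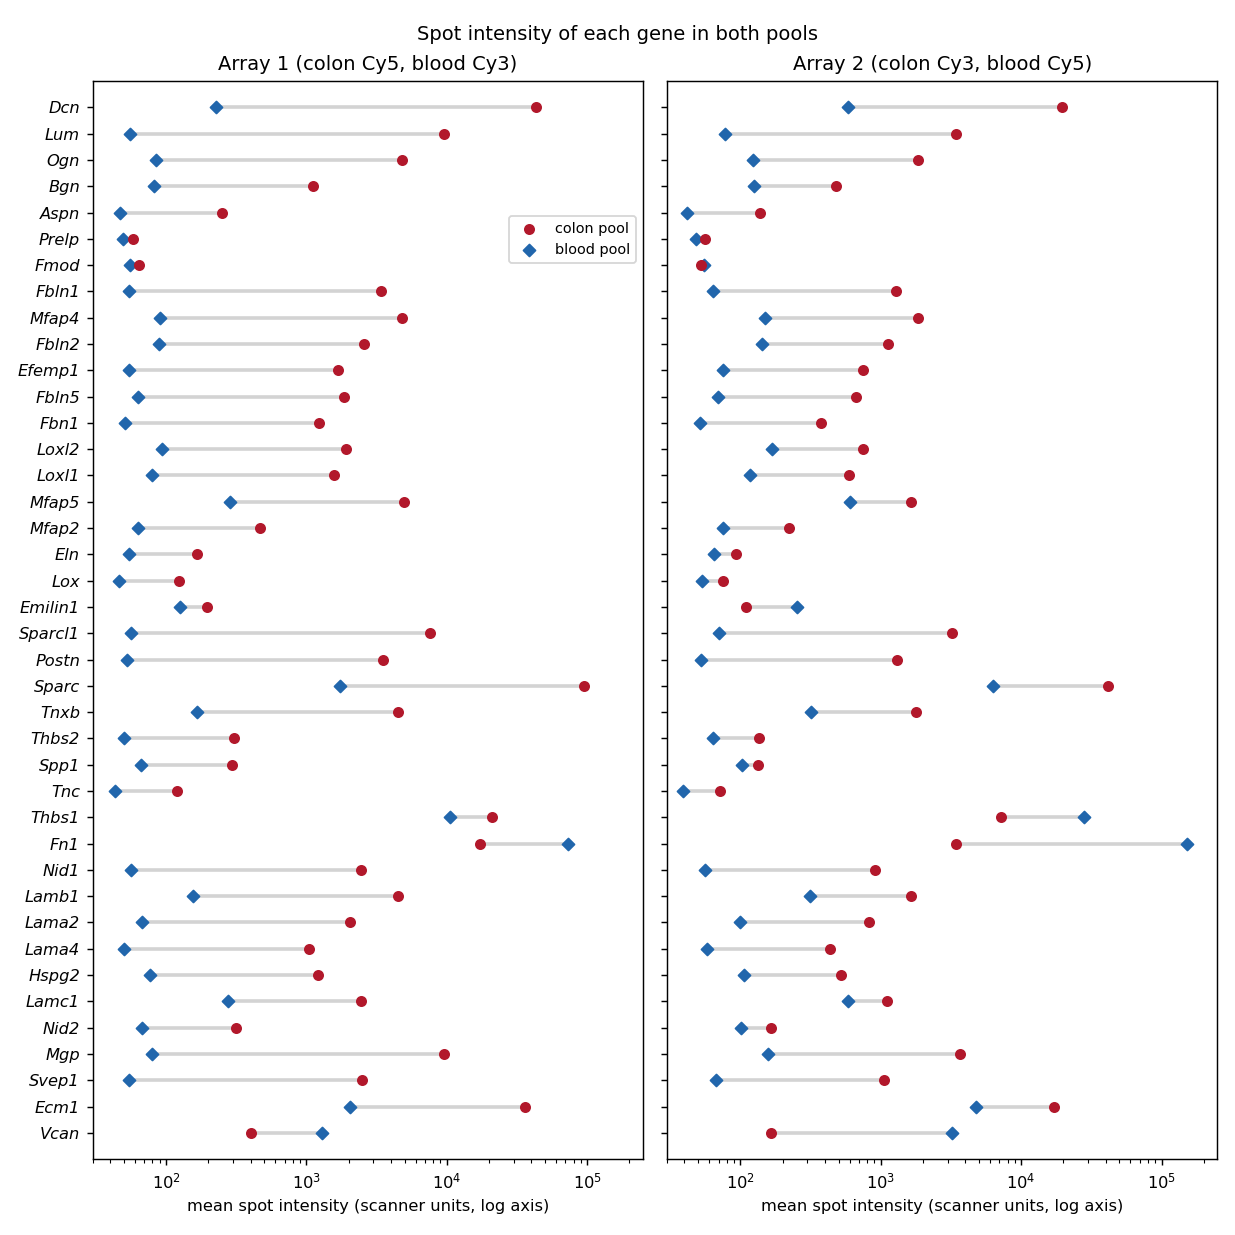
Mean spot intensity of the reported probe of each matrix gene in the colon pool (red circles) and the blood pool (blue diamonds) on array 1 (left) and array 2 (right), on a log axis. For Dcn the colon pool read 43466 on array 1 and 19398 on array 2 while the blood pool read 226 and 581; for Fn1 the order is turned.

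Under the reported processing the small leucine-rich proteoglycans held the 2 highest ratios of the set, those of Dcn and Lum. All 5 that were measured were higher, with a median of 5.24. The order of the highest genes depended on the processing. With the scanner software's ratios, described below, Lum read 9.15, Sparcl1 9.06, Postn 8.80 and Dcn 7.22. Dcn, which encodes decorin, a proteoglycan that binds collagen fibrils, read 43466 and 19398 in the colon pool on arrays 1 and 2, against 226 and 581 in the blood pool. Its log2 ratio as reported was 7.01 ± 0.08, which was rank 4 of the 15693 measured genes under that processing. The probe lies on chromosome 10, positions 96980233 to 96980292 of mouse build mm9. Lum, the gene of lumican, a regulator of collagen fibril assembly, read 9565 and 3418 in the colon pool, against 55.7 and 77.8 in the blood pool, for a ratio of 6.82 ± 0.14. Both genes were far above the blood signal in either dye, and that signal was itself well above background on both arrays for Dcn and on 1 array for Lum. Ogn, which encodes osteoglycin, read 4769 and 1848 in the colon pool, against 84.6 and 123 in the blood pool, for a ratio of 5.24 ± 0.18. Bgn, the gene of biglycan, a close relative of decorin, read 1107 and 482 in the colon pool, against 82.2 and 124 in the blood pool, for a ratio of 3.10 ± 0.12. Aspn, the gene of asporin, another collagen-binding member of the family, was dimmer in the colon pool, at 251 and 138, against 47.0 and 41.8 in the blood pool, which was not well above background. Its ratio of 1.75 ± 0.12 corresponded to a difference of at least 3.35-fold. Prelp, at 57.8 and 56.1 in the colon pool against 49.7 and 48.5 in the blood pool, and the fibromodulin gene Fmod, at 63.9 and 52.8 against 55.6 and 54.9, stayed near the local background in both pools.

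Several of these genes stand next to each other in the genome, and their neighbours did not share one level of difference. In the gene order of RefSeq, Dcn adjoins Lum on chromosome 10, and the next genes of the family there, Kera and Epyc, were not measured. On chromosome 13 the run Ecm2, Aspn, Omd and Ogn gave log2 ratios of 1.08 ± 0.23 (not called), 1.75 ± 0.12, 0.25 ± 0.12 (not called) and 5.24 ± 0.18, and the gene after Ogn, Nol8, read -0.01 ± 0.06. On chromosome 1 Optc, Prelp and Fmod adjoin each other and none was measured. Over all 40 genes, 46 measured protein-coding genes adjoined one of them without belonging to the set, and 7 of these (15.2%) were called higher and 1 lower, with a median of 0.14. That share is near the background of all measured genes. The 250 bases before and 50 bases after the start of Aspn and of Ogn are shown because both lie in this run and were called higher with different ratios (RefSeq, build GRCm38.p6; Aspn is chr13:49544193-49544492 and Ogn is chr13:49607765-49608064, both on the plus strand). Capitals mark the letters TATAAA on either strand.
Aspn: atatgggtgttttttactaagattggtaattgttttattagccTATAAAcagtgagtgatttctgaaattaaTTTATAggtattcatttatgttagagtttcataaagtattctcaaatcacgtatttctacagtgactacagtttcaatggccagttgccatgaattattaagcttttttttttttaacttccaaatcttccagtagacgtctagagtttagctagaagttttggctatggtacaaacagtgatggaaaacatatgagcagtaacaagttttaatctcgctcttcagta
Ogn: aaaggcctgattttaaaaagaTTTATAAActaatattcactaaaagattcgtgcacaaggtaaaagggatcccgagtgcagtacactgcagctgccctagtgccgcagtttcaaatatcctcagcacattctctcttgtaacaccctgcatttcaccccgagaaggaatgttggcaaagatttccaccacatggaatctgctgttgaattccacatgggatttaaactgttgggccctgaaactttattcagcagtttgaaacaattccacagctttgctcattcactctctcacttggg
In Aspn the letters start 207 bases before the start on the plus strand and 178 bases before it on the minus strand. In Ogn they start 229 bases before the start on the minus strand and 227 bases before it on the plus strand, and these matches overlap.

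Of the 13 elastic fibre and microfibril genes, all measured, 10 were higher and none lower, with a median of 3.62. The fibulin genes, whose proteins bridge microfibrils, elastin and cell surfaces, were all called higher. Fbln1 read 3384 and 1277 in the colon pool, against 54.9 and 63.9 in the blood pool, for a ratio of 5.24 ± 0.26 and a difference of at least 37.7-fold. Fbln2 read 2564 and 1128 in the colon pool, against 88.9 and 143 in the blood pool (4.27 ± 0.22). Fbln5, which is needed for elastic fibre assembly in mice, read 1854 and 663 in the colon pool, against 63.1 and 69.4 in the blood pool (4.18 ± 0.19). Efemp1, which encodes fibulin 3, read 1671 and 746 in the colon pool, against 54.9 and 75.0 in the blood pool (4.24 ± 0.17). For each fibulin gene both colon values lay above both blood values.

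Genes of the microfibril itself covered a wider range. Mfap4, the gene of a microfibril-associated glycoprotein that binds elastin and collagen, read 4779 and 1842 in the colon pool, against 90.4 and 151 in the blood pool (5.07 ± 0.08). Fbn1, which encodes fibrillin 1, the backbone of microfibrils, read 1220 and 376 in the colon pool, against 51.4 and 51.8 in the blood pool, for a ratio of 3.63 ± 0.14 and a difference of at least 12.4-fold. Mfap5 read 4921 and 1645 in the colon pool, against 284 and 603 in the blood pool (3.42 ± 0.17), and its relative Mfap2 read 469 and 221, against 62.7 and 74.9 (2.27 ± 0.16). Emilin1, whose protein sits between elastin and microfibrils, read 197 and 110 in the colon pool, against 125 and 253 in the blood pool. Its raw order changed with the dye, its normalized ratio was 0.07 ± 0.07, and its sign turned under other scalings, which are given in the closing section.

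Elastin and the enzymes that cross-link it did not all get the same call under the reported processing. Eln, the elastin gene, read 166 and 93.8 in the colon pool, against 54.7 and 64.4 in the blood pool. Its ratio was 1.07 on array 1 and 0.81 on array 2, so it was past 2-fold on 1 array alone and was not called (0.94 ± 0.18). Lox, the gene of lysyl oxidase, was also dim, at 123 and 75.2 in the colon pool against 45.9 and 53.7 in the blood pool, and was not called (0.74 ± 0.16). The related oxidase genes Loxl1 and Loxl2 were called higher. Loxl1, the relative tied to elastin in mice, read 1574 and 595 in the colon pool, against 79.5 and 116 in the blood pool (3.55 ± 0.02). Loxl2 read 1923 and 752 in the colon pool, against 93.1 and 169 in the blood pool (3.62 ± 0.0023). Whether the dim values of Eln and Lox count as a difference depended on the background setting. With the scanner software's ratios Eln read 2.72 and Lox 3.53, both called higher, beside 4.49 for Loxl1 and 4.26 for Loxl2.

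The adhesive and matricellular glycoproteins spread most widely: 6 of the 9 were higher and 1 was lower, and their median was 1.65. This median depended on the processing. With the scanner software's ratios, described below, 7 were higher and the median was 4.44. The elastic fibre and microfibril genes then had a median of 4.49 and the basement membrane genes 4.52. Matricellular proteins are secreted proteins that act on cells rather than build fibres. Sparcl1 read 7602 and 3212 in the colon pool, against 56.2 and 71.0 in the blood pool, for a ratio of 6.57 ± 0.42, the largest SD between the arrays in the set. Postn, which encodes periostin, read 3498 and 1307 in the colon pool, against 52.5 and 52.0 in the blood pool, for a ratio of 5.49 ± 0.37 and a difference of at least 43.1-fold. Sparc, the gene of a collagen-binding glycoprotein, was bright in both pools, at 94901 and 41577 in the colon pool against 1747 and 6300 in the blood pool, and its ratio was 5.08 ± 0.11. Tnxb, the tenascin X gene, read 4499 and 1792 in the colon pool, against 167 and 317 in the blood pool (4.19 ± 0.08). Its relative Tnc, the tenascin C gene, read 119 and 71.9 in the colon pool, against 43.7 and 38.8 in the blood pool. Tnc was not called (0.76 ± 0.13). The scanner software's ratios gave Tnc 3.63, called higher, and Tnxb 4.44. Another Tnc probe read 0.15 and was not called, at 79.5 and 63.9 in the colon pool against 57.2 and 58.7 in the blood pool. Without background correction Tnc read 0.22, but the brightest probe was picked anew there. By the raw intensities that was the other probe, so the value does not show how the reported probe changed.

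The thrombospondin genes differed from each other. Thbs2 read 306 and 136 in the colon pool, against 50.5 and 63.8 in the blood pool, for a ratio of 1.65 ± 0.15 and a difference of at least 3.13-fold. Thbs1, whose protein is also stored in platelets and made by monocytes, was bright in both pools, at 21035 and 7169 in the colon pool against 10518 and 27962 in the blood pool. Its raw order changed with the dye and its ratio of 0.35 ± 0.06 was not called. Spp1, the osteopontin gene, which macrophages are known to express, read 297 and 133 in the colon pool, against 65.8 and 102 in the blood pool. It was higher at 1.34 ± 0.27, with 1.53 on array 1 and 1.15 on array 2, and lost this call under median centring.

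Fn1 had the lowest ratio of the set. It encodes fibronectin, an adhesive glycoprotein that integrins bind, and it read 17097 and 3413 in the colon pool, against 72938 and 152492 in the blood pool. Both colon values lay below both blood values. The log2 ratio was -2.94 ± 0.28 (7.67-fold lower), at rank 15650 of the 15693 measured genes from the highest, at a probe on chromosome 1, positions 71632116 to 71632175 of mm9. It was the sole one of the 9 adhesive and matricellular genes that was called lower.

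All 7 basement membrane genes were measured and higher in the colon pool, with a median of 3.65. Laminins are trimers of an alpha, a beta and a gamma chain, nidogens link them to collagen IV, and perlecan, a heparan sulphate proteoglycan, joins the same sheet. Lamb1, the beta 1 chain gene, read 4517 and 1636 in the colon pool, against 155 and 314 in the blood pool (4.18 ± 0.09). Lama2, the alpha 2 chain gene, read 2048 and 820 in the colon pool, against 67.6 and 98.7 in the blood pool (4.17 ± 0.14). Lama4, the alpha 4 chain gene, known from vessels and other mesenchymal basement membranes, read 1044 and 432 in the colon pool, against 49.9 and 57.7 in the blood pool (3.65 ± 0.08, at least 12.6-fold). Lamc1, the gamma 1 chain gene, had the lowest ratio of the laminin members, at 2464 and 1104 in the colon pool against 274 and 588 in the blood pool (2.66 ± 0.07). The laminin chain genes were thus higher for alpha, beta and gamma chains alike, with colon values above blood values in either dye.

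The linker genes were less even at the reported probes. Nid1, for nidogen 1, read 2442 and 905 in the colon pool, against 56.1 and 55.9 in the blood pool, for a ratio of 4.80 ± 0.28 and a difference of at least 27.8-fold at its brightest probe. Averaged over its measured probes Nid1 read 1.95, and its dimmer probes are described below. Nid2 read 316 and 164 in the colon pool, against 67.4 and 100.3 in the blood pool (1.53 ± 0.0065), and lost its call under median centring. Hspg2, the perlecan gene, read 1211 and 519 in the colon pool, against 77.0 and 107 in the blood pool (3.36 ± 0.15). The promoter of Lamb1 is shown as that of a laminin gene whose window holds 2 of the motifs searched in all windows (RefSeq, GRCm38.p6, chr12:31265043-31265342, plus strand). Capitals mark the GC box letters GGGCGG and the PU.1 core letters GAGGAA, here all on the minus strand, with first bases 84, 75 and 29 bases before the start.
Lamb1: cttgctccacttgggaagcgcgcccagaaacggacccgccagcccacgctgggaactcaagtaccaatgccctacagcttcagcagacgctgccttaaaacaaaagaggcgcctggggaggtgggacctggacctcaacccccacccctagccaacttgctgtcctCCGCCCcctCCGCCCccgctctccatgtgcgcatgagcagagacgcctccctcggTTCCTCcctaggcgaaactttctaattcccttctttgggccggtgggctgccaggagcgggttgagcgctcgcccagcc

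Of the 4 other matrix genes, 3 were higher and 1 lower. Mgp, which encodes matrix Gla protein, an inhibitor of calcification, read 9518 and 3670 in the colon pool, against 79.3 and 158 in the blood pool (6.14 ± 0.09). Svep1, the gene of a large adhesive protein that binds integrin alpha 9 beta 1, read 2504 and 1048 in the colon pool, against 54.7 and 67.2 in the blood pool, for a ratio of 4.88 ± 0.25 and a difference of at least 29.4-fold. Ecm1, for extracellular matrix protein 1, read 36314 and 17077 in the colon pool, against 2047 and 4733 in the blood pool (3.81 ± 0.34). These 3 genes were higher in either dye.

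Vcan, the gene of versican, a large hyaluronan-binding proteoglycan, went the other way. It read 403 and 166 in the colon pool, against 1298 and 3216 in the blood pool, for a ratio of -2.24 ± 0.15 (4.73-fold lower) at a probe on chromosome 13, positions 89795080 to 89795139 of mm9. Another of its probes read -1.70 and was called lower, and the last, the dimmest, read -0.61 and was not called. Its promoter window is shown as that of a gene that was lower, beside those of the higher genes (RefSeq, GRCm38.p6, chr13:89742463-89742762, minus strand). Capitals mark GGGCGG, on the printed strand 219 bases before the start and on the opposite strand 10 bases before it.
Vcan: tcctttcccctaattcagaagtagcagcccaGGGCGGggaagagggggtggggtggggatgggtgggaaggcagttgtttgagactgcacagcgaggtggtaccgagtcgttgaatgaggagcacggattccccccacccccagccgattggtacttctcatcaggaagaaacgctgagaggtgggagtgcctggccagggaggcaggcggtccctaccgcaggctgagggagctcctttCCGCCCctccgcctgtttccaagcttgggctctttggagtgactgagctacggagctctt

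Promoter windows were held for 25 of the 40 genes, 31 windows in all, and their letters were compared with those of all 32851 windows of the same length. TATAAA, searched on both strands, was in 29.0% of the matrix gene windows and 13.6% of all windows; the 8 genes with it were Aspn, Ecm1, Ogn, Postn, Spp1, Svep1, Thbs2 and Tnc. GGGCGG was in 48.4% of the matrix gene windows and 35.7% of all windows, for 14 genes, Vcan among them. GAGGAA, a core read by PU.1, the lead transcription factor of myeloid cells, was in 38.7% of the matrix gene windows and 28.3% of all windows, for 11 genes. TGANTCA, the AP-1 letters, was in 9.68% of the matrix gene windows and 7.81% of all windows, for Ecm1, Efemp1 and Tnxb. The median GC content was 54.3% in the matrix gene windows and 52.7% in all windows. These are matches of short letters, several windows belong to 1 gene, and no match was tested as a binding site.

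Where a gene had several probes, the brightest was reported, and the other probes gave smaller ratios. The 13 genes with several probes had 17 further ones, and all 17 read closer to 0 than the reported probe of their gene. Of the 15 that were measured, 10 had the same call as the reported probe, 5 were not called where it was called and 0 were called in the opposite direction. Nid1 showed the widest gap. Its other probes, 1655 and 74297 genomic bases toward the 5′ end on mm9, read 0.68 and 0.37 and were not called. They were dim in the colon pool too, at 113 and 73.1 for the nearer and 88.3 and 65.2 for the farther, against 47.3 and 46.5 for the nearer and 46.7 and 49.7 for the farther in the blood pool.

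Other genes differed less between their probes or had 1 dim probe. Fbln1 read 2.36 at a probe 448 bases toward the 5′ end, and Loxl1 read 2.31 at 6881 bases, both still called higher. Loxl2 read 2.08 and 2.51 at its other probes on chromosome 14; another probe that carries the name Loxl2 in the array file lies on chromosome 2 there and read -0.05. Mfap2 read 0.65, not called, 908 bases toward the 5′ end. Sparc read 4.46, Lama2 3.52 and Ecm1 3.24 at their other probes, all called higher. Probes for Fbln5 (-0.01) and Hspg2 (0.33) were not well above background. The labelling copied RNA from its poly(A) end, and 11 of the further probes lay on the 5′ side of the reported one and 5 on the 3′ side; the part of position in these gaps was not tested.

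Relatives of these genes outside the set were read in the same way. Of 48 listed matrix relatives 35 were measured, 16 of them higher and 2 lower, with a median of 0.54. The highest were Ccn2 (5.76 ± 0.22) and Ccn1 (4.31 ± 0.15), matricellular genes induced by growth factors and stretch, and Matn2 (4.21 ± 0.02), the matrilin 2 gene. Ccn2 read 5994 and 2380 in the colon pool, against 70.1 and 111 in the blood pool. The lower relatives were Emilin2 (-1.71 ± 0.19), at 28511 and 6584 in the colon pool against 53923 and 122166 in the blood pool, and Mfap3 (-1.21 ± 0.07). The paralogs Emilin1 and Emilin2 thus had different calls, and no test of the difference between genes was made. Of 11 basement membrane relatives 7 were measured, 5 higher and none lower, with a median of 1.65. Among them were the laminin chain genes Lamb2 (2.52 ± 0.12) and Lama5 (1.75 ± 0.02). Lama5 belongs to laminins of epithelial basement membranes, and its blood signal was near background on both arrays.

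Receptors for matrix proteins, those for collagens included, were higher for 11 of the 23 measured of 27 listed and lower for none, with a median of 0.97. Itga11, the chain of a collagen-binding integrin of fibroblasts, read 2709 and 974 in the colon pool, against 49.1 and 60.7 in the blood pool (5.04 ± 0.07, at least 32.9-fold). Sdc4, for the heparan sulphate proteoglycan syndecan 4 (4.61 ± 0.37), and Itga9, for the integrin chain that binds tenascin C, osteopontin and Svep1 protein (3.80 ± 0.03), followed. Itga9 was bright in the colon pool, at 5789 and 2218, against 290 and 574 in the blood pool.

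**Figure D3:**
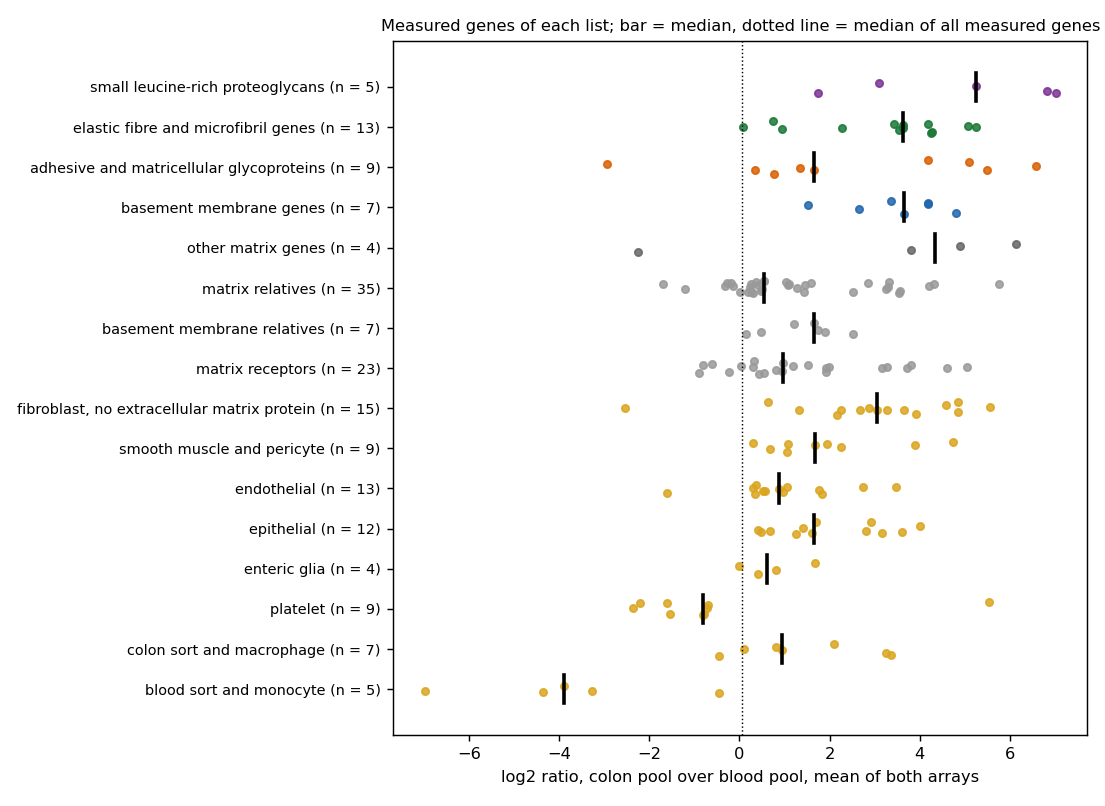
Mean log2 ratio, colon over blood, for each measured gene of each list, with the list's median as a black bar and the median of all measured genes as a dotted line. The 5 upper rows are the matrix genes by role, with medians from 1.65 to 5.24 under the reported processing. Relatives and receptors (medians 0.54 to 1.65) and marker lists follow, and the list of blood sort and monocyte genes lies lowest.

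Genes that mark cells the sort was not aimed at were set beside these values, beginning with those of fibroblasts. Of 18 fibroblast markers outside the set of matrix genes, 15 were measured, 13 were higher and 1, Pi16 (-2.53 ± 0.44), was lower, with a median of 3.05. The highest were Pcolce, an enhancer of procollagen processing (5.55 ± 0.19), Pdpn (4.84 ± 0.22) and Cygb (4.83 ± 0.04). Pdgfra, the receptor that defines most gut fibroblasts, read 810 and 337 in the colon pool, against 48.9 and 48.8 in the blood pool (3.26 ± 0.12, at least 9.61-fold). The transcription factor genes Twist1, Prrx1 and Meox2 were not measured. The summed intensity of the measured fibroblast markers was 46873 and 18083 in the colon pool, against 15823 and 23349 in the blood pool, where Pi16 alone read 14312 and 20560. Pdpn and Cd34 are also known from other cell types. The part of fibroblast RNA in the matrix ratios was not tested.

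Markers of muscle, vessels, epithelium and glia were read next. Of 10 smooth muscle and pericyte markers 9 were measured and 7 were higher, with a median of 1.68, led by Tagln (4.74 ± 0.14), Cnn1 (3.88 ± 0.14) and Acta2 (2.26 ± 0.01). Their summed intensity was 106687 and 21877 in the colon pool, against 20864 and 99626 in the blood pool; most of it came from Mcam, which was not called and differed between the arrays (0.67 ± 1.25). Of 14 endothelial markers 13 were measured, 4 higher and 1, Flt1 (-1.60 ± 0.28), lower, with a median of 0.87, and Egfl7 (3.47 ± 0.19), Plvap (2.74 ± 0.08) and Ptprb (1.82 ± 0.01) were the highest. Their summed intensity was 8258 and 3764 in the colon pool, against 3759 and 6831 in the blood pool. Cdh5, the defining cadherin of endothelium, was dim and not called (0.97 ± 0.07). All 12 epithelial markers were measured, 9 were higher and none lower (median 1.65), with sums of 9288 and 3978 in the colon pool against 897 and 1209 in the blood pool. Of 6 enteric glia markers 4 were measured and 1, Cryab (1.67 ± 0.11), was higher, with sums of 1417 and 638 in the colon pool against 397 and 637 in the blood pool. Gfap and Foxd3 were not measured, and Sox10 read -0.02 ± 0.09.

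Platelets carry several of these matrix proteins, such as thrombospondin 1, fibronectin and Sparc protein, so their markers were read too. Of 9 markers, all measured, 4 were lower, Gp9 (-2.36 ± 0.45), Treml1 (-2.21 ± 0.18), Itga2b (-1.62 ± 0.03) and Ppbp (-1.54 ± 0.10), with a median of -0.81 over the list. Pf4, which macrophages also express, was higher (5.53 ± 0.30), at 136310 and 60375 in the colon pool against 1658 and 7579 in the blood pool, and it made up most of the list's sums, 137266 and 60983 in the colon pool against 4036 and 12413 in the blood pool. The part of platelet RNA in the ratios of Fn1 and Thbs1 was not tested.

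The sort genes followed their labels in part. Of the 3 genes the colon cells were sorted on, Itgax, which encodes CD11c, was higher (3.35 ± 0.08), and Cx3cr1 (0.10 ± 0.25) and Itgam, the CD11b gene of both sorts (-0.46 ± 0.33), were not called. Of the 4 macrophage genes in the same list, Mertk (3.24 ± 0.04) and Adgre1 (2.10 ± 0.19) were higher and the other 2 were not called. Cx3cr1 was bright in both pools, at 21680 and 6508 in the colon pool against 11748 and 33305 in the blood pool. The sums of this list were 258279 and 76419 in the colon pool, against 70496 and 225260 in the blood pool. Of 6 blood sort and monocyte genes 5 had a probe and were measured, and 4 were lower in the colon pool, among them Chil3 (-6.98 ± 0.19), Ccr2 (-3.90 ± 0.18) and Ly6c1 (-3.28 ± 0.09), with sums of 21412 and 5744 in the colon pool against 270103 and 469512 in the blood pool. Fn1 and Vcan were lower too, as were 4.45% of all measured genes. Whether Fn1 and Vcan are tied to these 4 genes was not tested.

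The calls of the matrix genes changed little with the processing, while the sizes of dim genes changed much. Of the 33 called genes 31 kept their call under every alternative ratio or filter that measured them at the 2-fold threshold, and the exceptions were Nid2 and Spp1 under median centring of each array. At a threshold of 4-fold, 27 of the 31 higher genes and both lower genes stayed called, and Aspn, Nid2, Spp1 and Thbs2 did not. The ratios of the scanner software, made from its own background-subtracted signals, were larger for genes with a blood signal near background: Fbn1 read 7.49, Lama4 7.045, Postn 8.80 and Aspn 5.32 there. For Dcn, whose blood signal was above background, the values ran from 6.29 to 7.22. Fn1 ran from -3.74 to -2.74 and Vcan from -2.85 to -1.515, which is the mean over its measured probes, and both were called lower in each.

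**Figure D4:**
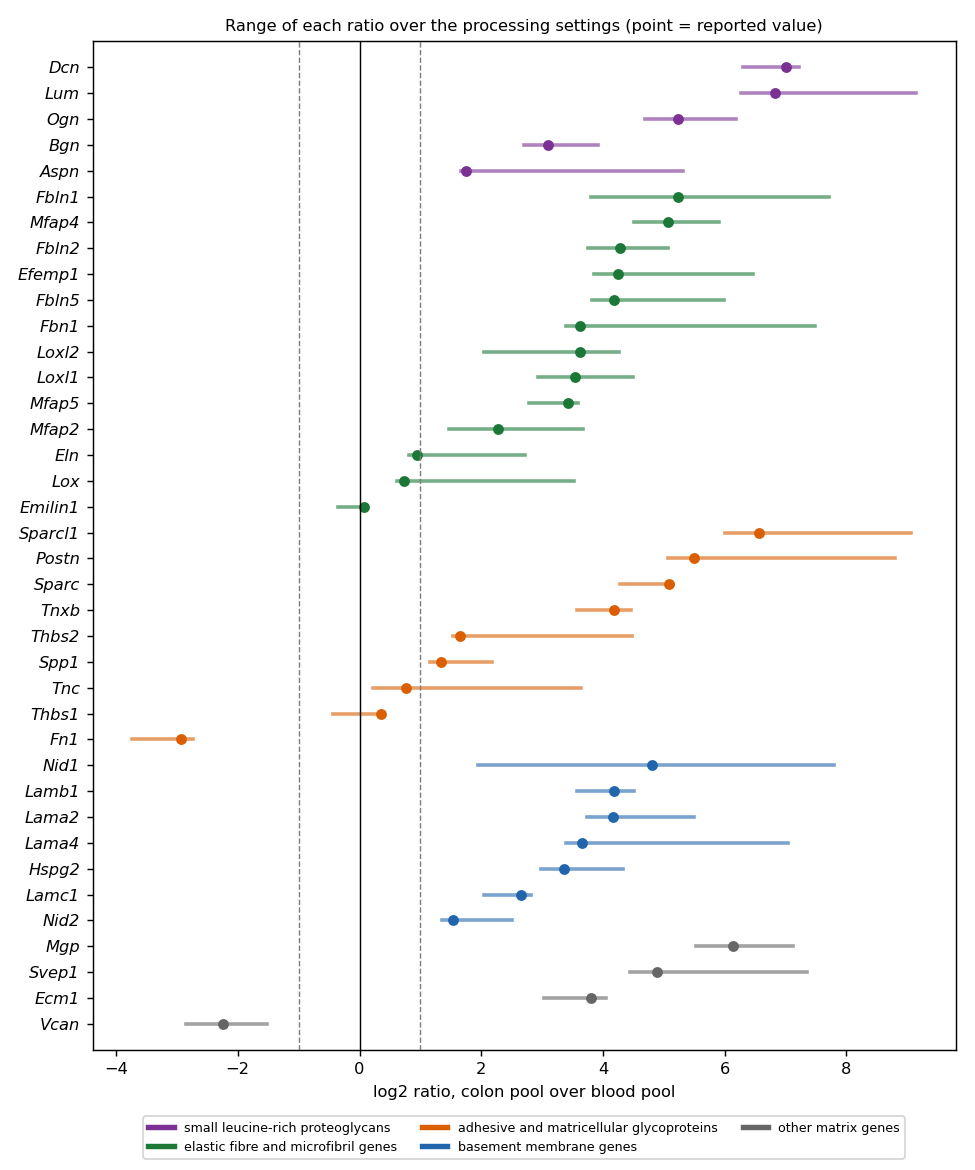
Range of the log2 ratio, colon over blood, of each measured matrix gene over the processing alternatives (bar) and the reported value (point); the dashed lines mark 2-fold. The bars of Postn, Lama4, Fbn1 and Aspn reach far to the right, that of Dcn spans 6.29 to 7.22, and those of Fn1 and Vcan stay left of the lower line.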

How the data were processed

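RNA of the 2 pools was measured on 2 Agilent arrays of 60-base probes (design 026655, per the file headers). The authors deposited scanner files with the intensity of each spot, linear and without normalization, the flags other than intensity for spots well above background, and a log10 ratio of red over green, made by Feature Extraction (10.5.1.1 per the submitters' processing notes, 10.7.3.1 per the file headers). The series' deposited table holds the same log10 ratios, with the sign of array 2 turned (largest difference 4.81e-08), so it runs colon over blood; its centring is that of the software.

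Intensities of all 44397 spots were corrected by normexp (offset 50), followed by a loess fit within each array that gave weight 0 to controls and outliers (limma 3.58.1, R 4.3.3). The ratio of array 2 was turned and both arrays were averaged. The offset compresses the ratios of dim genes. Spots were named through RefSeq accessions (29529), the name in the file (8751) or not at all (4740), with RefSeq symbols of GRCm38 used for names, gene order and promoter windows; positions of probes come from the array files (mm9). The brightest measured probe of a gene gave its value, and it was picked anew under each background correction. Bounds are the bright pool's mean log2 level minus, per array, the higher of the dim probe's own and the lowest among probes well above background, after loess and Aquantile.

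The arrays count as 1 replicate, so genes were called by size and no p-value was computed. The number of arrays limits the precision. The method was tested on simulated data with changes placed at bright spots alone, so that test does not cover dim genes. All 40 genes are named; of each other list, up to 3 called genes per direction, and further genes named from the lists were chosen after their values were seen; a few list genes are not reported here by name. The genes and lists were chosen with earlier results of these data known. Alternatives were other background corrections, scalings, probe rules, filters and fold thresholds, and each array alone.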

Additional observations from a re-analysis of the deposited data

How the results depend on the processing

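With background left uncorrected, with an offset of 16, with median centring or Aquantile scaling, with the software's ratios or the authors' value table, with probes averaged, with either array alone and with dim probes kept, 29 to 34 matrix genes were higher and 2, Fn1 and Vcan, were lower in the colon pool. Aquantile scaling leaves the ratio within each array as it is. The value table holds the software's ratios, so neither could differ from the setting it repeats. When both pools had to be well above background, 24 matrix genes were measured and 20 were higher. Eln, Lox and Tnc were called higher with the offset of 16 and with the software's ratios, and Eln also without background correction and on array 1 alone. The median log2 ratio of the matrix genes, 3.64 as reported, was 3.89 without background correction, 4.27 with the offset of 16, 3.27 with median centring, 4.50 with the software's ratios and with the value table, 3.47 with the mean over probes and 3.58 with both pools above background. Without array 1 or without array 2 it was 3.66 and 3.61, with 31 and 32 genes higher and 2 lower on each. Over all genes each array alone gave 2398 to 2641 higher and 847 to 859 lower. Of all calls 76.1% were higher as reported (2224 higher, 699 lower), 67.1% with median centring (1138 higher, 558 lower) and 60.4% with the software's ratios or the value table (3181 higher, 2083 lower); among the matrix genes these shares were 93.9%, 93.5% and 94.4%. Median centring moved the median of all measured genes to -0.28, and the matrix genes' median then lay 3.55 above it, against 3.58 as reported. A threshold of 1.5-fold gave 3493 higher and 1725 lower genes, and 4-fold gave 954 and 130; of the matrix genes 34 were higher at 1.5-fold, with Eln, Lox and Tnc added, and 27 at 4-fold, with Aspn, Nid2, Spp1 and Thbs2 lost, and 2 were lower at each. These counts changed by fewer or more genes passing the threshold itself; for the other moved values the cause was not tested. Of 2 genes that were not called, Thbs1 turned to -0.44 under median centring, and Emilin1 fell below 0 under median centring and with the software's ratios (lowest -0.35). No called value changed sign. No paired analysis was possible because the arrays hold the same pools in 1 group. A blood signal at background limits how large the ratios of 11 genes can be read, and pools without replicates leave the spread between mice unknown.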

Other observations

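Some listed genes of related families that the report did not go through are given here as values. They were grouped after their values were seen. The latent TGF-beta binding proteins hold the growth factor in the matrix. Of their 4 genes, Ltbp4 (3.56 ± 0.04), Ltbp3 (3.31 ± 0.0063) and Ltbp1 (1.45 ± 0.14) were higher in the colon pool, and Ltbp2 was not called (0.47 ± 0.37). Ltbp4 read 22902 and 9144 in the colon pool, against 1344 and 3311 in the blood pool. Of the CCN genes, Ccn1 and Ccn2 were higher, and Ccn3 (0.23 ± 0.17), Ccn4 (0.37 ± 0.23) and Ccn5 (0.26 ± 0.02) were not called and were dim. The syndecans are cell surface proteoglycans that bind matrix proteins. Sdc4, Sdc2 (3.16 ± 0.02) and Sdc1 (1.92 ± 0.42) were higher, and Sdc3 was not called (0.53 ± 0.09), at 2838 and 1245 in the colon pool against 1413 and 3304 in the blood pool. With Thbs3 (3.29 ± 0.14) higher and Thbs4 (0.49 ± 0.34) not called, the thrombospondin genes outside the set also differed in their calls; no test of the differences between genes was made.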
